A study of Mus musculus with 2 samples.

Results

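A set of mouse miRNA genes tied to red blood cells, by their known expression or by lying opposite such a gene, was followed in the left cerebral cortex: Mir451a, Mir144 and Mir486, with Mir451b and Mir3107 on the strands opposite Mir451a and Mir486. These 5 genes were taken by symbol (GENCODE M21) out of the 2202 miRNA genes counted. The tissue came from male B6CASTF1/J mice aged 2 months, the first-generation cross of C57BL/6J and CAST/EiJ. The 2 libraries, called library 1 (male 3) and library 2 (male 4), form 1 group, with no treatment named in the labels, so no condition was compared. The labels number the animals apart but give both 1 donor identifier, so differences between the libraries, and the tests on them, may reflect technical spread only. Whether blood was washed out of the brain by perfusion is not given in the sources used here.

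A miRNA is a short RNA that guides an Argonaute protein to messenger RNAs, mainly through its seed, bases 2 to 8 from the 5′ end. Mir144 and Mir451a are cut from a shared primary transcript that the erythroid factor GATA1 drives in developing red cells. The miR-451a hairpin is too short for Dicer and is cut instead by the Argonaute protein Ago2. Mir486 lies in Ank1, the gene of the red cell membrane protein ankyrin, and is known from both red cells and striated muscle. Mature red blood cells have no nucleus but keep a large store of miRNAs, in which miR-451a is the best known member. Brain tissue holds these cells inside its vessels.

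The RefSeq miRNA table (GRCm38.p6, the build that mm10 names) held 3 of the 5 genes, Mir451a, Mir451b and Mir144. Their mature sequences are shown because the counts below depend on telling the strands and copies apart. Capitals mark the seed.
miR-451a: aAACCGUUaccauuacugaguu
miR-451b: uGGGAGCAgcaagagaaccgu
miR-144-5p: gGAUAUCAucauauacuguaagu
miR-144-3p: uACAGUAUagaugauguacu
No other mature sequence among the 1679 names in the table had the seed of any of these 4. Each matched 1 place among the 1005 hairpins of the table, read on both strands, and still 1 place with 1 mismatch allowed. Mature miR-451a has a GC content of 36.4% and miR-451b of 57.1%.

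The hairpins of Mir451a and Mir451b cover the same bases and are shown because they are read from opposite strands of 1 locus. Capitals mark the mature sequence.
Mir451a: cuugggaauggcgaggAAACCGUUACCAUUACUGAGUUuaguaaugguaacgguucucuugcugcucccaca
Mir451b: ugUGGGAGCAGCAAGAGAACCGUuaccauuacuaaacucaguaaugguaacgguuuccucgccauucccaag
Each is the exact reverse complement of the other, and when they are laid side by side 52 of 72 positions are identical. Mature miR-451a had at least 4 mismatches at every position along the Mir451b hairpin. It takes up bases 17 to 38 of its hairpin and so reaches into the loop. The 2 arms of miR-144 take up bases 6 to 28 and 43 to 62 of the Mir144 hairpin, which is shown for comparison.
Mir144: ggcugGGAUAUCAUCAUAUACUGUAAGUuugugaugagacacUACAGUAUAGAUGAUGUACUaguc

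The genes occupy 2 loci in mm10. Mir144 (ENSMUSG00000065401.1; chromosome 11, 78073005 to 78073070, plus strand) and Mir451a (ENSMUSG00000070065.1; chromosome 11, 78073170 to 78073241, plus strand) are 99 bases apart. They lie between genes: Flot2 ends 12570 bases before Mir144, and the nearest end of Eral1, on the minus strand, is 134 bases beyond Mir451a. Mir451b (ENSMUSG00000104813.1) has the coordinates of Mir451a on the minus strand. Mir486 (ENSMUSG00000070084.3; chromosome 8, 23142555 to 23142682, plus strand) lies within 15 transcripts of Ank1 and overlaps no exon of them. Mir3107 (ENSMUSG00000106471.1; chromosome 8, 23142573 to 23142662, minus strand) lies within the 90 bases it shares with Mir486, in an intron of the antisense transcript Gm15816.

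Library 1 held 3827158 reads and library 2 held 4553291 reads on the sense strand of miRNA genes, out of 11372894 and 12980686 reads in all. Values are counts per 1000000 of these sense-strand reads (CPM). A counted read is a whole fragment shorter than 30 bases, so a gene's count does not grow with the length of its hairpin and levels are compared without dividing by length. Counts are per gene, and the arms of a hairpin are not separated. No molecular identifiers were counted, so a read is not an independent molecule and intervals and limits cover counting error only. Of the 13 neuronal miRNA genes listed, 11 had at least 10 reads in total. Their means ran from Mir132 at 39333 ± 12985 CPM (SD, n = 2) down to Mir9-2 at 1.79 ± 0.05 CPM. The liver miRNA Mir122 was at 75.5 ± 4.42 CPM. Below it were Mir9-3 (56.7 CPM), Mir9-1 (12.2), Mir9-2, Mir124a-1 (3.28), Mir124a-2 (0.90) and Mir124a-3 (0.89). Reads that fit several gene copies reach no gene in these counts, so the levels of such copies are uncertain.

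Together the 5 genes were a small part of the cortical miRNA reads, and most of what they had came from Mir451a in library 2. They held 539 reads in library 1, or 0.0141% of the sense-strand miRNA reads (95% Wilson interval 0.0129 to 0.0153%). In library 2 they held 7067 reads, or 0.155% (0.152 to 0.159%). The share was 11.0-fold higher in library 2, and 1.62-fold higher without Mir451a, when 316 and 608 reads remained. In library 1 Mir451a made up 41.4% of the reads of the set, Mir486 36.2%, Mir144 17.4% and Mir3107 5.01%. In library 2 Mir451a made up 91.4%, Mir144 6.18%, Mir486 2.24% and Mir3107 0.184%.

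Mir451a, which supports the last steps of red cell maturation, had 223 reads (58.3 CPM) in library 1 and 6459 reads (1419 CPM) in library 2. Among all 2202 genes it ranked 222 in library 1 and 75 in library 2, and its mean of 738 ± 962 CPM (SD, n = 2) has an SD larger than itself. Mir144, which is known to act on the antioxidant factor Nrf2 in red cells, had 94 reads (24.6 CPM) in library 1 and 437 reads (96.0 CPM) in library 2, with a mean of 60.3 ± 50.5 CPM. Both genes of the chromosome 11 locus were thus higher in library 2.

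Mir486, which is expressed with Ank1 in red cells and muscle, went the other way in the reads that were counted. It had 195 reads (51.0 CPM) in library 1 and 158 reads (34.7 CPM) in library 2, with a mean of 42.8 ± 11.5 CPM (SD, n = 2). Mir3107 had 27 reads (7.05 CPM) and 13 reads (2.86 CPM), with a mean of 4.95 ± 2.97 CPM. Mir451b had 0 reads in both libraries, which allows up to 7.84e-05% of the sense-strand miRNA reads in library 1 and 6.59e-05% in library 2. In mean level the order was Mir451a, Mir144, Mir486, Mir3107 and Mir451b, but Mir144 and Mir486 changed places between the libraries. Mir486 was above Mir144 in library 1 and below it in library 2. For scale, the liver miRNA Mir122 was above all 5 genes in library 1, at 72.4 CPM. In library 2, at 78.6 CPM, it was below Mir451a and Mir144 and above the others.

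**Figure D1:**
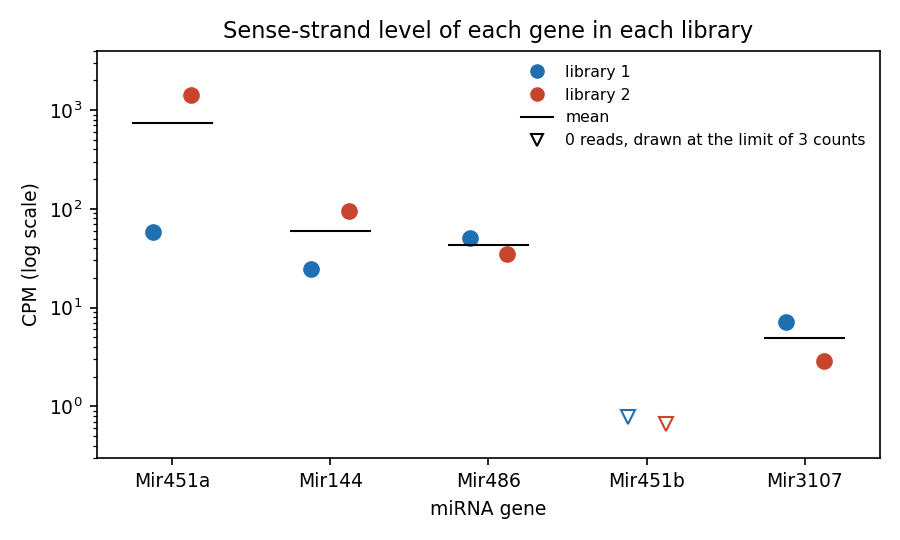
CPM of the 5 genes (log axis) in library 1 and library 2, with a bar at the mean and an open triangle at the limit of 3 counts for a gene with 0 reads. The points of Mir451a are the farthest apart, at 58.3 and 1419 CPM, while those of Mir486 are at 51.0 and 34.7 CPM.

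The genes next to Mir451a and Mir144 in mean level varied less between the libraries than the member they flank did. Mir381 stood just above Mir451a at 745 ± 243 CPM and Mir212 just below at 711 ± 58.1 CPM (SD, n = 2). Both were picked as the genes next to Mir451a in mean level, so their lying within its spread follows from that choice. The mean of Mir144 lay between Mir491 at 60.3 ± 24.7 CPM and Mir7044 at 58.9 ± 4.59 CPM. That of Mir486 lay between Mir1188 at 42.9 ± 5.09 CPM and Mir345 at 42.6 ± 12.5 CPM. Mir345 varied more than Mir486 (SD 11.5 CPM), and Mir1188 less. These neighbours lay within the spread of the member they flank as well, which follows from the same choice.

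The difference between the libraries was far beyond counting error for Mir451a. It was 24.3-fold higher in library 2 (log2 ratio -4.61, taken as library 1 over library 2, with an exact 95% interval of -4.80 to -4.41). Mir144 was 3.91-fold higher in library 2 (log2 ratio -1.97, -2.30 to -1.64). Mir486 was 1.47-fold higher in library 1 (0.55, 0.24 to 0.87), and Mir3107 2.47-fold higher in library 1 (1.31, 0.30 to 2.38). All 4 passed a two-sided exact binomial test of the reads with Benjamini-Hochberg adjustment at 0.05 over 508 genes. That test called 48.4% of all genes tested, 23.2% as higher in library 2 and 25.2% as higher in library 1, so passing it does not set a gene apart. It compares these 2 libraries and says nothing of a condition.

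When the spread between the libraries over all genes was allowed for, only Mir451a among the 5 genes still passed. edgeR's exact test at a common dispersion, a coefficient of variation of 33.2% between the libraries, called 0.787% of the 508 genes, or 4. Its adjusted p was 2.21e-06 for Mir451a and 0.410 for Mir144 (unadjusted p = 0.00726), and 1 for both Mir486 and Mir3107. The dispersion was estimated from the same 2 libraries, so these values describe how far a gene stands from the others. Of the 406 genes with 10 or more reads in both libraries, Mir451a had the 2nd largest absolute log2 ratio, Mir144 the 6th, Mir3107 the 21st and Mir486 the 119th. The median gene differed 1.28-fold.

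**Figure D2:**
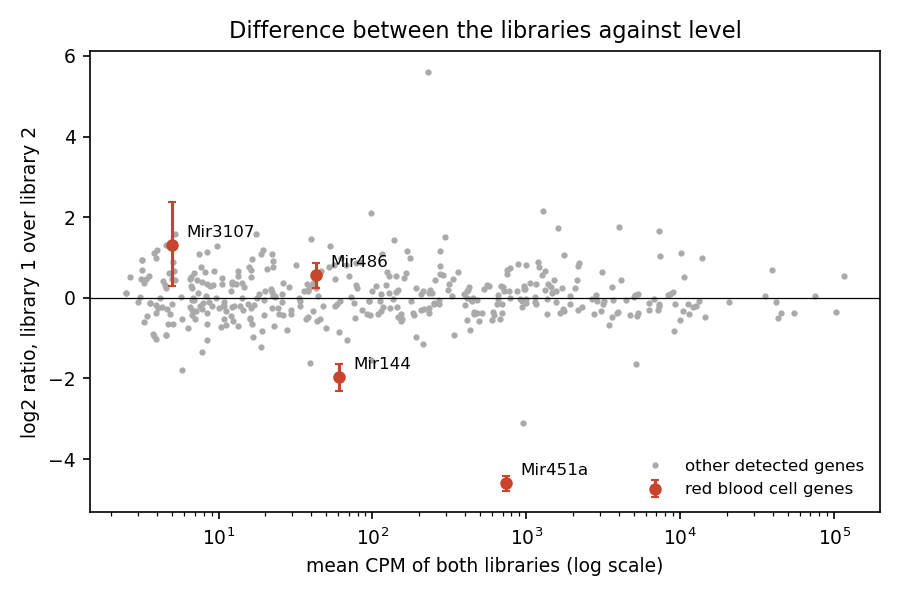
Log2 ratio of library 1 over library 2 against mean CPM (log axis) for the 406 genes with 10 or more reads in both libraries, with exact 95% intervals on Mir451a, Mir144, Mir486 and Mir3107. Mir451a at -4.61 is the lowest point, Mir144 at -1.97 lies among a few other low genes, of which Mir185 at -3.11 is lower, and Mir486 at 0.55 lies among many others.

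Among genes with 10 or more reads in both libraries and outside the set, the log2 ratio nearest to that of Mir451a was -3.11, for Mir185, whose 755 reads in library 1 stood against 7751 in library 2, followed by Mir1949 with 10 and 41 reads and Mir99b with 9542 and 35381 reads. Mir1949 (log2 ratio -1.78), Mir99b (-1.64) and Mir592 (-1.62) were nearest to Mir144 among the same genes. For Mir486 the nearest were Mir139, Mir136 and Mir6906, all at a log2 ratio of 0.55. Likeness here is the distance between log2 ratios over only 2 libraries.

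Mir144 and Mir451a were not higher in library 2 by the same factor, although they sit 99 bases apart and share a transcript. There were 2.37 Mir451a reads for each Mir144 read in library 1 (exact 95% interval from 1.86 up to 3.05), against 14.8 in library 2 (from 13.4 up to 16.3). The ratio was 6.23-fold higher in library 2 (two-sided Fisher's exact test on the reads, p = 1.49e-34). Unequal ratios were common among miRNA genes that are neighbours. Of 64 pairs on the same strand, within 1000 bases and with 10 or more reads in both libraries, 76.6% passed this test after Benjamini-Hochberg adjustment. The median pair was 1.45-fold apart. Mir144 and Mir451a were the farthest apart of these 64 pairs, ahead of Mir487b and Mir539 at 5.66-fold and Mir23a and Mir27a at 3.93-fold. This comparison was chosen after the counts were seen.

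**Figure D3:**
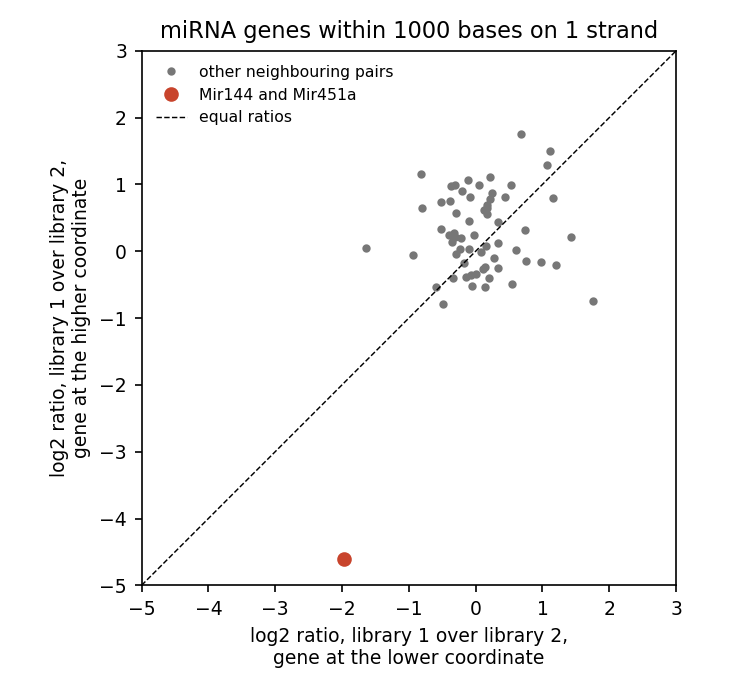
Log2 ratio of library 1 over library 2 for the gene at the higher coordinate against that of the gene at the lower coordinate, for 64 neighbouring pairs, with a dashed line of equal ratios. Mir144 and Mir451a sit at -1.97 and -4.61, apart from the other pairs and below the line.

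The other ratios within the set moved as well. Mir451a had 1.14 reads for each Mir486 read in library 1 (exact 95% interval from 0.939 up to 1.39), an interval that holds equal counts, and 40.9 in library 2 (34.9 to 48.2). Mir144 had 0.482 reads for each Mir486 read in library 1 (0.373 to 0.620) and 2.77 in library 2 (2.30 to 3.34). Mir23a, a miRNA that red cells hold at a low level and that blood work uses as the partner of miR-451a in a measure of red cell RNA, had 25208 reads in library 1 and 52888 in library 2. Mir451a had 0.00885 reads for each Mir23a read in library 1 (0.00772 to 0.0101) and 0.122 in library 2 (0.119 to 0.125). The ratio was thus 13.8-fold higher in library 2, less than the 24.3-fold difference of Mir451a alone, and Mir23a itself had more CPM there (11615 against 6587). Whether this ratio measures red cell RNA in cortex tissue was not tested.

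All counted reads of the Mir451a locus lay on the Mir451a strand. The antisense column of Mir451b repeated the 223 and 6459 sense reads of Mir451a, and the antisense column of Mir451a was at 0 in both libraries. Set against the limit of 3 counts per library, Mir451a was at least 74.3-fold higher than Mir451b in library 1 and at least 2153-fold higher in library 2. These minimum values hold for counted reads only. Mir144 had no gene opposite it and 0 antisense reads in both libraries.

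The Mir486 locus had reads on both strands. Mir3107 took 27 of 222 reads in library 1, which is 12.2% (exact 95% interval from 8.17 up to 17.2%). In library 2 it took 13 of 171, which is 7.60% (from 4.11 up to 12.6%). The share was not shown to differ between the libraries (two-sided Fisher's exact test, p = 0.178). Among 26 pairs of overlapping miRNA genes on opposite strands with 10 or more reads in each library, 20 had no read on the lesser gene in either library. Only Mir486 with Mir3107 and Mir24-1 with Mir3074-1 had more than 1% there in the mean. Mir24-1 and Mir3074-1 varied more, with 3 of 291 reads (1.03%) in library 1 and 34 of 174 (19.5%) in library 2. The Mir486 locus thus had the highest share on the lesser strand in library 1 and not in library 2. Reads with several places are missing from all these pairs, so the shares hold for counted reads only. These pairs were compared after the counts were seen.

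**Figure D4:**
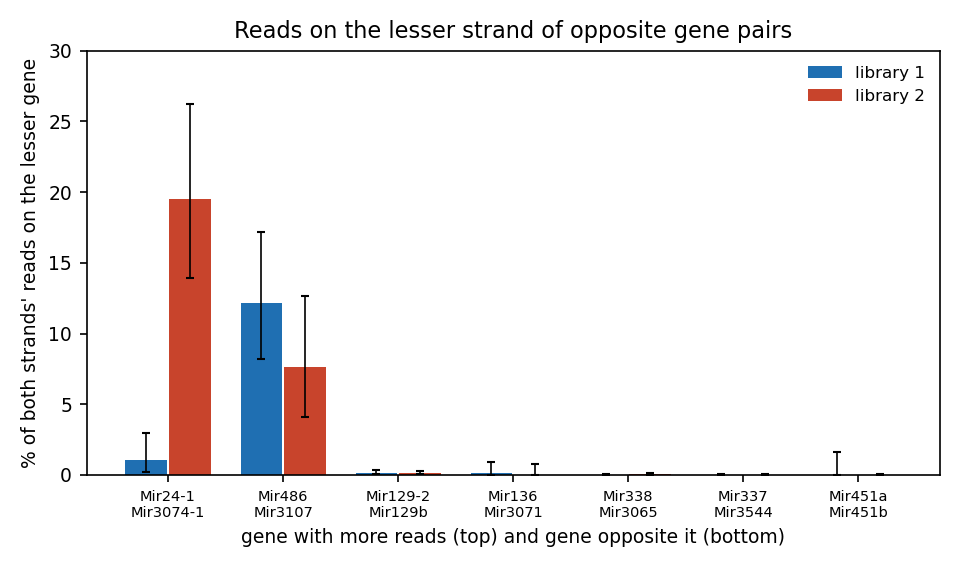
Percent of a pair's reads that lay on the gene with fewer reads, for the 6 opposite-strand pairs with any such read and for Mir451a with Mir451b, with exact 95% intervals. Mir486 with Mir3107 stands at 12.2% and 7.60%, and Mir451a with Mir451b at 0.

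The counts of Mir486 and Mir3107 carry a further limit. The RefSeq gene table gives mir-486a and mir-486b as their other names, and the main products of these are known to have the same mature sequence. A read that fits both strands of the locus has more than 1 place, and in the layout of these tables such reads are tallied apart and reach no gene. They made up 41.7% of library 1 and 41.1% of library 2 over all miRNAs, and how many came from this locus, or from the chromosome 11 locus, was not analysed here. The true output of the locus may therefore be higher than its counts. The direction of Mir486 and Mir3107 between the libraries rests on the counted reads only. So do the rank of Mir486 beside Mir144, its ratios to other genes and the strand shares of the locus.

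Other miRNAs that red cells hold in quantity did not follow Mir451a as a group. Of 18 such genes, 17 had at least 10 reads, and the exact binomial test called 5 as higher in library 2 and 4 as higher in library 1, beside 23.2% and 25.2% of all genes tested. Their median log2 ratio was 0.04, beside -0.01 for all 508 genes. Their summed share was 1.46% in library 1 and 1.53% in library 2, most of it from Mir191 (36207 and 38668 reads). Mir185 was 8.63-fold higher in library 2 and the only gene of the list to pass edgeR's exact test (adjusted p = 0.00518). Mir16-1 was 1.91-fold higher in library 2, with 894 and 2030 reads, whereas Mir16-2, the second gene for mature miR-16, had 280 and 328 reads (1.02-fold higher in library 1, which did not pass). Reads of the mature sequence that these genes share fit both, so their counts are uncertain. The most abundant, Mir191 at 8976 ± 685 CPM, was 1.11-fold higher in library 1, while Mir484 at 1153 ± 81.8 CPM and Mir93 at 1143 ± 52.9 CPM (SD, n = 2) were 1.11-fold and 1.07-fold higher in library 2. Many of these genes are also expressed in other cells. In bulk tissue, fewer cells of a type and less RNA per cell cannot be told apart.

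No listed miRNA of white cells, microglia or platelets passed as higher in library 2. The list does not separate blood cells from the microglia of the brain tissue. The exact binomial test called 4 of 7 listed genes as higher in library 1 and 0 as higher in library 2, beside 25.2% and 23.2% of all genes tested. The median log2 ratio was 0.28, and the summed share was 0.612% in library 1 and 0.503% in library 2. The list was led by Mir342 at 3614 ± 477 CPM, Mir150 at 1155 ± 191 CPM and Mir146 at 708 ± 96.0 CPM (SD, n = 2), which were 1.21-fold, 1.27-fold and 1.21-fold higher in library 1. The myeloid miRNA gene Mir223 had 61 reads in library 1 and 8 in library 2, and was the only gene of the list to pass edgeR's exact test (adjusted p = 0.0492). Mir142, which white cells express broadly, had 173 and 198 reads. Mir155, a miRNA of activated immune cells, had 140 and 208 reads (1.25-fold higher in library 2), which did not pass. No gene of this list was at 0. Vessel wall miRNAs held 1.44% of library 1 and 1.86% of library 2, with the endothelial Mir126a 1.46-fold higher in library 2, Mir143 1.09-fold higher in library 2 and Mir145a 1.15-fold higher in library 1. The part of blood content in the difference of Mir451a was not tested.

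Striated muscle miRNAs, listed because muscle also expresses Mir486, were scarce. Of 9 genes, 5 had 0 reads (Mir133b, both Mir133a genes and both Mir1a genes), and copies with shared mature sequences leave their counts uncertain. The summed share was 0.00397% in library 1 and 0.00549% in library 2. Of the 4 genes tested, the exact binomial test called 1, Mir208a, as higher in library 2 and 0 as higher in library 1. The shares over all genes tested were 23.2% and 25.2%. In this list edgeR's exact test called 0, beside 0.787% of all genes tested. The highest were Mir206 at 29.5 ± 5.84 CPM, Mir499 at 14.3 ± 2.13 CPM and Mir208a at 2.39 ± 1.90 CPM (SD, n = 2). All 4 with at least 10 reads had more CPM in library 2, but only Mir208a passed the exact binomial test. Mir208a had 4 and 17 reads and Mir208b 2 and 8, so these directions rest on few reads. The part of muscle in the reads of Mir486 was not tested. In the neuronal list 5 of 11 genes tested passed as higher in library 1 and 2 as higher in library 2, beside 25.2% and 23.2% of all genes tested, with a median log2 ratio of 0.09.

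**Figure D5:**
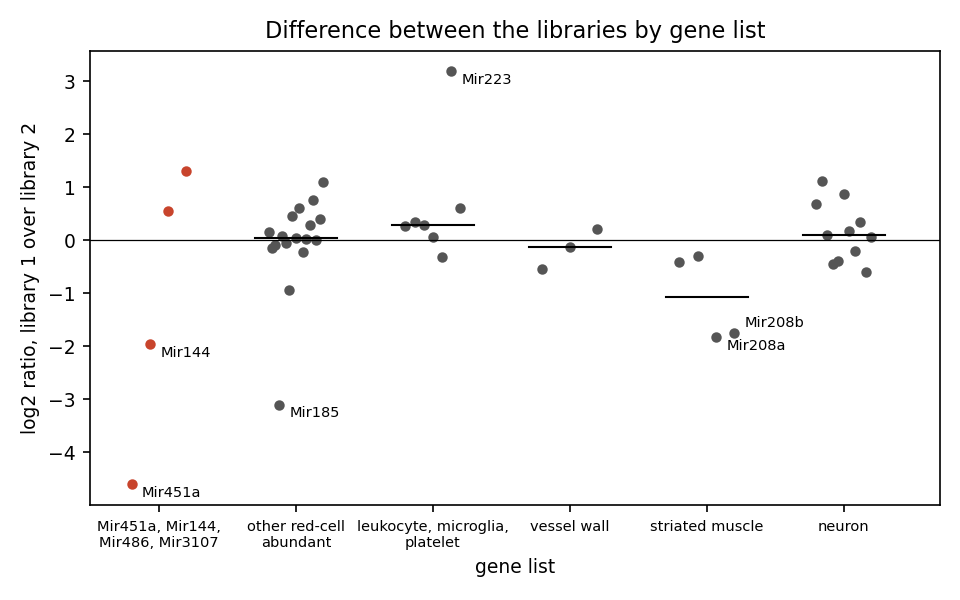
Log2 ratio of library 1 over library 2 of each gene with at least 10 reads, by gene list, with a bar at the median of each list (none for Mir451a, Mir144, Mir486 and Mir3107). Mir185 at -3.11 and Mir223 at 3.18 stand apart in their lists. The median is 0.04 for the other red cell genes and 0.28 for the list of white cells, microglia and platelets.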

How the data were processed

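MicroRNA reads shorter than 30 bases were counted in 2 libraries. The authors deposited raw read counts per miRNA gene, not normalized, 1 table per library (mm10 and GENCODE M21, per the labels and deposited descriptions). No aligner, version or trimming step is given in the sources used here. The layout, with 3 count columns and 4 tally rows, is that of STAR's gene counts, in which reads with several places reach no gene. Tally rows stayed out of the CPM totals and main tests, and entered only the totals of all reads and the alternative scaled by them. They held 19.6% and 18.9% unmapped, 41.7% and 41.1% several-place and 5.03% and 4.94% outside reads. Reads of the CAST/EiJ parent that differ from mm10 may have been lost.

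The first stranded column was taken as sense, and it had the larger total in both libraries. CPM, exact binomial and Fisher tests, Wilson and Clopper-Pearson intervals used Python 3.11.15 with scipy 1.17.1. Genes with 10 or more reads in total were tested, and a count of 0 was given a limit of 3 counts. The spread used edgeR 4.0.16 (R 4.3.3), with DESeq2 1.42.0 size factors as an alternative. With 2 libraries in 1 group and no contrast, edgeR's quasi-likelihood test could not be fitted.

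The members, gene lists and rules were chosen with earlier results of these data known. Named genes are the members, Mir23a, the 3 genes nearest to Mir451a, Mir144 and Mir486 in log2 ratio, their neighbours in mean CPM and the 1 to 3 highest genes of each list. Others, such as Mir185, Mir16-1, Mir223 and the named pairs, were chosen after their values were seen. Alternatives covered strand, denominator, scaling, count minimum, pseudocount, test and leaving out each library.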

Additional observations from a re-analysis of the deposited data

Results flagged for a closer look

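Outside the gene counts, the tally of several-place reads held 41.7% of all reads in library 1 and 41.1% in library 2, and these reads were not analysed. They reach no gene in these tables, and the share of them that came from the Mir486 locus was not tested. No value was checked for a sample far from the others, since a group of 2 is too small.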

How the results depend on the processing

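The log2 ratio of Mir451a stayed between -4.67 and -4.58 under 8 alternatives and past the threshold in each, with edgeR's exact test giving the highest adjusted p (2.21e-06). Under that test the log2 ratios of Mir144 (-1.96, adjusted p = 0.410), Mir486 (0.55, adjusted p = 1) and Mir3107 (1.30, adjusted p = 1) kept their direction and no longer passed, and the genes called fell from 246 to 4. Their other alternatives kept direction and call. In the column that ignores strand, Mir451a (from 738 CPM), Mir486 and Mir3107 are at 0 CPM, since reads at overlapping genes are then tallied as ambiguous, and the mean share of the 5 genes falls from 0.0846 to 0.00650%. Per 1000000 reads of the whole library Mir486 and Mir3107 had 14.7 and 1.69, by the larger denominator. The median of the other red cell genes turned from 0.04 to -0.00131 with DESeq2 size factors, so it has no direction. Leaving out a library moved the mean level between 58.3 and 1419 CPM for Mir451a, 24.6 and 96.0 CPM for Mir144, 34.7 and 51.0 CPM for Mir486 and 2.86 and 7.05 CPM for Mir3107, with Mir451b at 0, and the share of the 5 genes between 0.0141 and 0.155%. No paired analysis was possible because the series has 1 group. Depth limits Mir3107, with 27 and 13 reads, and Mir451b, with 0.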
